A study of Mus musculus with 6 samples.

Results

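BAF complexes are remodelers that use ATP to slide or evict nucleosomes, and they are built from an ATPase and a set of interchangeable subunits. As neural progenitors leave the cell cycle and become neurons, several of these subunits are exchanged for neuronal paralogs. The actin-like subunit Actl6a gives way to Actl6b, the PHD-finger subunits Phf10 and Dpf2 give way to Dpf1 and Dpf3, and Ss18 gives way to Ss18l1, while Smarca4 and Smarca2 are the alternative ATPases of the complex. In neurons the microRNAs miR-9* (the 3p arm of miR-9) and miR-124 repress Actl6a, and the repressor Rest, with its cofactor Rcor1, keeps those microRNAs off in progenitors.

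The 10 genes of this exchange were chosen by name from a list: 4 progenitor subunits (Actl6a, Phf10, Dpf2 and Ss18), 4 neuronal subunits (Actl6b, Dpf1, Dpf3 and Ss18l1) and 2 ATPases (Smarca2 and Smarca4), out of 51733 genes in the count tables. All 10 passed the filter on low values, which left 21329 genes to test. The question was whether loss of Ybx1, a cold-shock protein that binds DNA and RNA, was accompanied by a different balance of progenitor and neuronal subunits.

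RNA was sequenced from Sox2-positive NPCs (neural progenitor cells) of E13.5 neural tubes, in 3 control libraries and 3 Ybx1-KO libraries. Control embryos were labelled wildtype. Ybx1-KO embryos were homozygous for the constitutive null allele Ybx1tm1Ley, which is carried by every tissue and not by NPCs alone. All libraries were labelled C57BL/6. The embryos carried a Sox2-eGFP knock-in reporter (Sox2tm1Hoch), by which the cells were sorted and whose stock has a mixed B6;129S1 background; both sexes were included. The labels do not say whether libraries of a group came from separate embryos, and in each group the first 2 libraries share a number in their titles, so the p-values below measure the spread between these libraries. Likewise, n counts libraries. No title number occurs in both groups, so if the numbers mark litters, litter and genotype cannot be told apart.

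The libraries held 20841990 to 23883542 counts on genes in controls and 4743279 to 13321952 in Ybx1-KO. Ybx1-KO 3 stood apart. It was the shallowest, and only 7.22% of its read pairs fell on genes, against 18.0% to 24.7% in the other 5 libraries. In Ybx1-KO 3, 1942 olfactory, vomeronasal and taste receptor genes, which NPCs should not express, summed to 4691 CPM (counts per 1000000 counts on genes). Their sum was 25.5 to 98.3 CPM in the other 5 libraries. That background made up between 2.30% (Smarca4) and 33.5% (Dpf3) of the level of the 10 BAF genes in Ybx1-KO 3 and at most 1.10% in the other libraries, and the fitted difference of each of the 10 is therefore also given without Ybx1-KO 3. Levels of single genes and sums of markers below are in CPM scaled by TMM, which corrects for differences in composition between libraries. Ybx1 itself measured 235, 523 and 301 CPM in controls 1 to 3 and 124, 54.5 and 9.51 CPM in Ybx1-KO 1 to 3. The groups did not overlap, and the log2 fold change (Ybx1-KO over control) was −2.49 ± 0.675 (SE, n = 3 against 3; adjusted p = 0.301 by the quasi-likelihood method of edgeR) and −1.95 without Ybx1-KO 3. Counts were summed over the whole gene, so reads from any exon left by the allele would be included. The sorted cells held progenitor transcripts (Sox2 at a mean of 16.8 FPKM, Fabp7 at 499 and Vim at 97.4) beside neuronal ones (Tubb3 at 339 FPKM, Ina at 158 and Stmn3 at 106), where FPKM is CPM on genes, not scaled by TMM, per kilobase of exon.

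Sequence features that the choice of genes did not use are shown first, for the microRNA step of the exchange and for the promoters. Mir9-1, Mir9-2 and Mir9-3 (on chromosomes 3, 13 and 7) encode the same 2 mature microRNAs in RefSeq (GRCm38.p6), printed with the seed, bases 2 to 8, in capitals. The 2 arms have different seeds and so different matches.
mmu-miR-9-3p: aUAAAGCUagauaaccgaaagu
mmu-miR-9-5p: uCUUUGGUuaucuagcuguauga

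The match to the miR-9-3p seed, AGCTTTA, occurred in the 3′ UTR of 2 of the 10 genes, Actl6a and Smarca2, and in 11.3% of 20998 3′ UTRs of the GENCODE annotation (GRCm38). The match to the miR-9-5p seed, ACCAAAG, occurred in none of the 10 and in 12.2% of all 3′ UTRs. Each site is shown on the coding strand with 15 bases before the match and 2 after it, the match in capitals. The site of Actl6a lies at chr3:32726625-32726648 (plus strand), with the match starting at base 38 of a 371-base 3′ UTR, and that of Smarca2 at chr19:26777487-26777510 (plus strand), starting at base 132 of 952.
Actl6a site: cacctcaacgtctgtAGCTTTAgt
Smarca2 site: ttgtcatctagaactAGCTTTAgg

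Y-box proteins such as Ybx1 were named for binding an inverted CCAAT box. The letters CCAAT, or ATTGG on the other strand, were searched in the 300 bases from 250 before to 50 after the transcription start in RefSeq. They occurred in 4 of 9 BAF promoters, those of Actl6b, Dpf1 and Dpf3 among the 4 neuronal subunits and that of Dpf2 among 3 progenitor subunits, and in neither ATPase promoter. The promoter of Ss18 was left out because of its chromosome, a filter that was not applied to the full set. Of the 32851 promoters of that full set, 37.4% held the letters. The promoters of all 4 neuronal subunits are printed 5′ to 3′ on the strand of the gene, with the letters in capitals. The reason is that this group holds both the densest matches among the 9 and the member whose CPM did not overlap between genotypes, Ss18l1, which has none. The number of matches per promoter was not compared with the full set. The windows are chr5:137553296-137553595 (plus strand, Actl6b), chr7:29303755-29304054 (plus strand, Dpf1), chr12:83487687-83487986 (minus strand, Dpf3) and chr2:180042233-180042532 (plus strand, Ss18l1). They hold 3, 2, 3 and 0 matches, and their GC content is 61.7%, 74%, 55.3% and 71.7%. A match is a description of the letters and not a binding site.
Actl6b promoter: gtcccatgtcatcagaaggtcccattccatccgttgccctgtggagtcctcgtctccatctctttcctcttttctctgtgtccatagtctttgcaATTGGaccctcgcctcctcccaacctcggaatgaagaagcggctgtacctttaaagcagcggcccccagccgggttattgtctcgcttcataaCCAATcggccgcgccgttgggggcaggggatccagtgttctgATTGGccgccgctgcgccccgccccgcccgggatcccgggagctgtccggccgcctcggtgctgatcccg
Dpf1 promoter: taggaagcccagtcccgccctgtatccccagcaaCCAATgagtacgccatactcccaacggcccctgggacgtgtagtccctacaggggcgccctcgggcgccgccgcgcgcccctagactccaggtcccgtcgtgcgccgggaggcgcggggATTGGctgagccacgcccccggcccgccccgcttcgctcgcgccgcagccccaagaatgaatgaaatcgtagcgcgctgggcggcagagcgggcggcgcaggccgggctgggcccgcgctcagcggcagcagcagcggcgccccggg
Dpf3 promoter: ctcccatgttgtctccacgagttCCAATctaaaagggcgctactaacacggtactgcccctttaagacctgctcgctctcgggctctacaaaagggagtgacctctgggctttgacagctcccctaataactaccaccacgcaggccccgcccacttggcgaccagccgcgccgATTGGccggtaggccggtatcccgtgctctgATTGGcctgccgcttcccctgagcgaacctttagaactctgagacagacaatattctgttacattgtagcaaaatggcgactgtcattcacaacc
Ss18l1 promoter: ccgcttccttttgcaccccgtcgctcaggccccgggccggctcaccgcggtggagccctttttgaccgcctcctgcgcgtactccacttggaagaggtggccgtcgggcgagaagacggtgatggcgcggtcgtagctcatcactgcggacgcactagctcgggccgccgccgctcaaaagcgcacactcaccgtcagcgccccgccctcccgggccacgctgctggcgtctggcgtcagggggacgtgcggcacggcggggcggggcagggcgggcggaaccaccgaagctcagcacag

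A gene was called when its adjusted p was under 0.05 and its fold change over 1.5. None of the 10 BAF genes was called between Ybx1-KO and control by edgeR, nor was any of the 21329 genes tested (0%), whereas DESeq2 called 214 of all genes and limma-voom 0. At an unadjusted p below 0.05, edgeR picked out 2 of the 10, Smarca2 and Ss18l1, both lower in Ybx1-KO. Of all genes tested, 2393 (11.2%) reached that p, and 4.26% did so with a lower level. limma-voom and DESeq2 gave the same 2 genes at an unadjusted p below 0.05 and called neither; the lowest adjusted p of the 10 in DESeq2 was 0.130.

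Most fitted differences were below 0. Of the 10 log2 fold changes, 7 were below 0, against 38.7% of all genes, and their median was −0.40, against 0.31 for all genes. The 4 neuronal subunits had a median of −0.63 and the 4 progenitor subunits of 0.14. These medians depended on single libraries: the progenitor median was −0.073 without Ybx1-KO 2 and 0.018 without Ybx1-KO 1, and without Ybx1-KO 3 the neuronal and progenitor medians were −0.36 and 0.26. The median of all genes moved with the scaling and the filter, from 0.075 with a filter on CPM to 0.70 with no filter, and stood at 0.013 without Ybx1-KO 3. Relative to it, 8 of the 10 lay below, with a median of −0.70, and Dpf2 (0.083 above) and Ss18 (0.38 above) were the exceptions. Without Ybx1-KO 3, the median of the 10 was −0.16, or −0.17 relative to all genes.

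**Figure D1:**
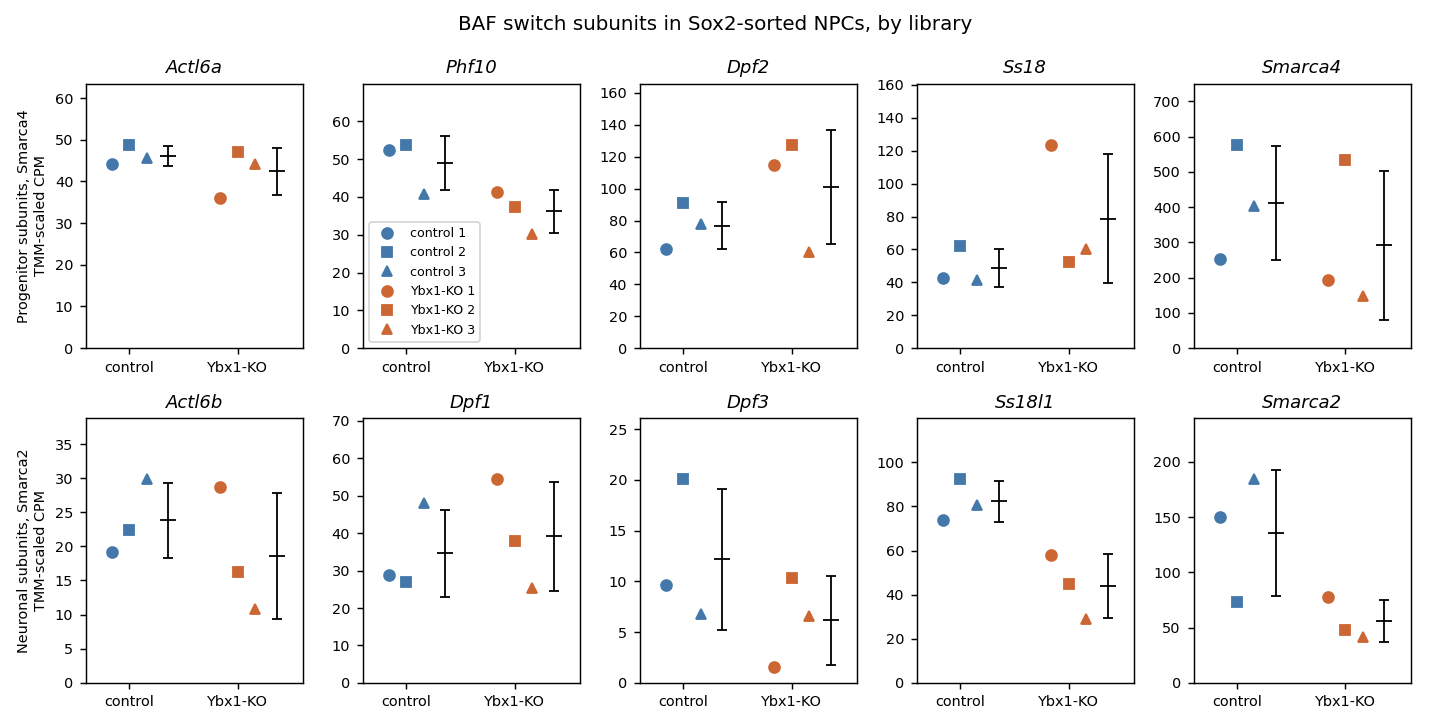
Level of each of the 10 BAF genes in each library, in CPM scaled by TMM (y axis, from 0, a separate range in each panel), for 3 control libraries (blue) and 3 Ybx1-KO libraries (orange); marker shapes give the library number and black bars the mean ± SD. Ss18l1 is the panel in which every Ybx1-KO library (29.1 to 57.9 CPM) lies below every control (73.8 to 92.2 CPM).

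**Figure D2:**
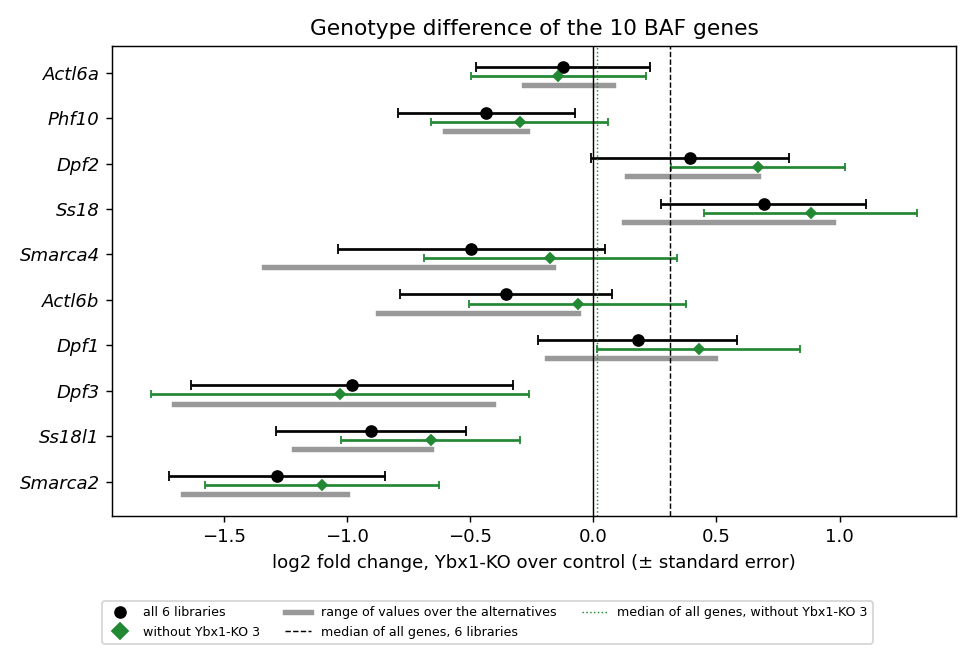
Log2 fold change, Ybx1-KO over control, of each BAF gene (x axis, ± SE) with all 6 libraries (black) and without Ybx1-KO 3 (green), beside the range over the 15 alternatives (grey bars) and the medians of all genes tested (vertical lines). Smarca2 (−1.29), Dpf3 (−0.98) and Ss18l1 (−0.90) lie farthest below 0 and their grey bars stay below it, while those of Actl6a and Dpf1 cross it.

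Among the progenitor subunits, Actl6a (chr3:32706298-32726973, plus strand) is the actin-like protein that progenitor complexes carry and that supports their proliferation. It measured 44.1, 48.8 and 45.6 CPM in the controls and 36.1, 47.0 and 44.2 CPM in Ybx1-KO. The groups overlapped and their means, 46.2 ± 2.42 and 42.4 ± 5.69 CPM (SD, n = 3), differed by less than the spread (log2 fold change −0.12 ± 0.353, adjusted p = 0.886 in edgeR). Without Ybx1-KO 3 it was −0.14, and with scaling by total counts alone the sign turned, to 0.079. A stretch of 11.6% of its exon length is shared with Mrpl47 on the opposite strand, and the strand setting of the counting is not given in the sources used here.

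Phf10 (chr17:14945009-14961273, minus strand) is the PHD-finger subunit found in dividing progenitors. It stood at 52.3, 53.8 and 40.7 CPM in controls and at 41.2, 37.3 and 30.1 CPM in Ybx1-KO. The groups overlapped by a small margin, between control 3 and Ybx1-KO 1, at a log2 fold change of −0.43 ± 0.36 (adjusted p = 0.571 in edgeR) and of −0.30 without Ybx1-KO 3. Of its exon length, 9.56% overlaps a gene on the opposite strand, 1600012H06Rik.

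Dpf2 (chr19:5896516-5913010, minus strand), a histone-reading subunit expressed in most cell types, measured 61.9, 90.9 and 77.7 CPM in controls and 115, 128 and 60.4 CPM in Ybx1-KO. The first 2 Ybx1-KO libraries were above every control and Ybx1-KO 3 was below them all, at a log2 fold change of 0.39 ± 0.404 (adjusted p = 0.651 in edgeR). On the FPKM scale, which divides by total counts without TMM, all 3 Ybx1-KO libraries (14.0 to 18.6 FPKM) lay above the controls (9.68 to 12.7 FPKM), and without Ybx1-KO 3 the log2 fold change was 0.67. The order of the libraries thus rested on how Ybx1-KO 3 was scaled.

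Ss18, a subunit without DNA-binding activity of its own that is known as a fusion partner in synovial sarcoma, had the highest fold change of the 10. Its level was 42.6, 62.0 and 41.6 CPM in controls and 124, 52.3 and 60.2 CPM in Ybx1-KO. On this scale a single library, Ybx1-KO 1, stood far above the other 5, which lay between 41.6 and 62.0 CPM. In FPKM, without TMM, Ybx1-KO 1 (13.9) and Ybx1-KO 3 (9.62) both lay above every control (4.09 to 5.98). Ybx1-KO 2 (4.08) lay just below them. The log2 fold change of 0.69 ± 0.415 (adjusted p = 0.469 in edgeR) was 0.13 without Ybx1-KO 1 and 0.88 without Ybx1-KO 3.

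Among the neuronal subunits, Ss18l1 (chr2:180042509-180070201, plus strand), a calcium-responsive transactivator required for dendrite growth, separated the groups. It measured 73.8, 92.2 and 80.7 CPM in controls and 57.9, 44.7 and 29.1 CPM in Ybx1-KO. The Ybx1-KO libraries were all lower than the controls, as in 8.17% of all genes tested and in 1 of these 10; the opposite order, all higher, was found in 4.99% of all genes and in 0 of these 10. The fitted difference was 1.87-fold, a log2 fold change of −0.90 ± 0.385 (unadjusted p = 0.0316 and adjusted p = 0.444 in edgeR), and the two-sided exact permutation test gave 0.1, the smallest p that 3 against 3 libraries allow. Without Ybx1-KO 3 the log2 fold change was −0.66 (adjusted p = 0.445 in edgeR). The promoter of Ss18l1, printed above, held no CCAAT.

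Actl6b (chr5:137553517-137569582, plus strand) is the neuron-specific actin-like subunit, needed for dendritic branching. It stood at 19.2, 22.4 and 29.8 CPM in controls and at 28.7, 16.3 and 10.8 CPM in Ybx1-KO. Ybx1-KO 1 fell among the controls and the remaining Ybx1-KO libraries lay below them, at a log2 fold change of −0.36 ± 0.431 (adjusted p = 0.705 in edgeR). Without Ybx1-KO 3 it was −0.063.

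Dpf1 (chr7:29303951-29318243, plus strand), a PHD-finger subunit restricted largely to neurons, measured 28.9, 27.0 and 48.1 CPM in controls and 54.4, 38.0 and 25.3 CPM in Ybx1-KO. The groups overlapped throughout, at a log2 fold change of 0.18 ± 0.403 (adjusted p = 0.847 in edgeR). The sign rested on Ybx1-KO 1, without which it was −0.19; without Ybx1-KO 3 it was 0.43.

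Dpf3 (chr12:83213745-83487716, minus strand), a paralog of Dpf1 also known from heart and muscle, was the lowest of the 10. It measured 9.63, 20.0 and 6.80 CPM in controls and 1.56, 10.3 and 6.58 CPM in Ybx1-KO, on 14 counts in Ybx1-KO 1 and at most 435 elsewhere. The groups overlapped and the log2 fold change of −0.98 ± 0.653 (adjusted p = 0.497 in edgeR) had the largest error of the 10. Over the fits that left out a library it ranged from −1.70 (without Ybx1-KO 2) to −0.41 (without control 2), and it was −1.03 without Ybx1-KO 3.

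Smarca2 (chr19:26605050-26778322, plus strand), the ATPase that is the paralog of Smarca4 and prominent in differentiated cells, had the lowest fold change. Its level was 150, 73.2 and 184 CPM in controls and 77.5, 47.8 and 41.8 CPM in Ybx1-KO. Control 2 lay just below Ybx1-KO 1, and apart from that pair the controls were all higher. The fitted difference was 2.44-fold, a log2 fold change of −1.29 ± 0.44 (unadjusted p = 0.00974 and adjusted p = 0.410 in edgeR), and the two-sided exact permutation test gave 0.2. Without Ybx1-KO 3 the log2 fold change was −1.10 (adjusted p = 0.367 in edgeR). Its 3′ UTR holds one of the miR-9-3p seed matches shown above.

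Smarca4 (chr9:21616169-21704230, plus strand), the main ATPase of progenitor BAF complexes, had the highest level of the 10. It measured 253, 577 and 403 CPM in controls and 193, 535 and 146 CPM in Ybx1-KO. The libraries of each group spread over more than 2-fold, and the groups overlapped, at a log2 fold change of −0.50 ± 0.541 (adjusted p = 0.672 in edgeR). The value without Ybx1-KO 2, the high Ybx1-KO library, was −1.34, and without Ybx1-KO 3, −0.17.

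Per length, the order of the genes in controls began with Smarca4 at 59.5 ± 20.7 FPKM (SD, n = 3) and Ss18l1 at 17.9 ± 1.19 FPKM, each above the next gene in every library. Below them, from Actl6a at 11.3 ± 0.35 FPKM to Dpf3 at 2.71 ± 1.45 FPKM, neighbours in the order overlapped. Neuronal Ss18l1 therefore stood above all 4 progenitor subunits in these control cells, while Actl6b (5.27 ± 1.05 FPKM) and Dpf1 (6.11 ± 1.94 FPKM) stood below Actl6a and Dpf2. In Ybx1-KO, Smarca4 was again first at 42.1 ± 16.1 FPKM, followed by Dpf2 at 15.7 ± 2.57 FPKM, and Ss18l1 came after Actl6a at 10.6 ± 3.29 FPKM, its libraries overlapping those of Actl6a and Ss18. Dpf3, at 1.51 ± 1.01 FPKM, lay below Smarca2 in every Ybx1-KO library. Exon lengths are unions of all annotated exons, so genes with long alternative UTRs, such as Ss18 with 9419 bases, are placed low by this measure.

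The paralogs were also set against each other within each library, where the scaling of libraries cancels. Ss18l1 over Ss18 was the pair that separated the genotypes. The ratio of FPKM was 3.75, 3.23 and 4.20 in controls and 1.02, 1.85 and 1.05 in Ybx1-KO, so that Ss18l1 exceeded Ss18 more than 3-fold in every control and stood near the level of Ss18 in 2 of 3 Ybx1-KO libraries. The size of the ratio depends on the exon lengths, 4343 bases for Ss18l1 and 9419 for Ss18. In CPM, not divided by length, Ss18l1 was above Ss18 in every control and below it in every Ybx1-KO library. The mean log2 ratio differed by −1.56 (a fold of 2.95), and by −1.84 to −1.41 when each library was left out in turn, with −1.43 without Ybx1-KO 3. These ratios were formed over genes chosen with earlier results known and are given without a test.

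The other pairs overlapped between genotypes. Actl6b over Actl6a was 0.396, 0.418 and 0.595 in controls and 0.725, 0.315 and 0.222 in Ybx1-KO, and Dpf1 over Dpf2 was 0.565, 0.359 and 0.748 in controls and 0.573, 0.36 and 0.507 in Ybx1-KO. Dpf1 over Phf10 ran from 0.459 to 1.08 in controls and from 0.77 to 1.21 in Ybx1-KO, in the opposite direction to the Ss18 pair. The ratio of Dpf3 to Dpf2 was 0.135 to 0.339 in controls and 0.021 to 0.167 in Ybx1-KO, its lowest value resting on the 14 Dpf3 counts of Ybx1-KO 1. That of Dpf3 to Phf10 was 0.195 to 0.433 in controls and 0.0441 to 0.322 in Ybx1-KO. Smarca2 over Smarca4 was 0.27, 0.0575 and 0.207 in controls and 0.182, 0.0406 and 0.13 in Ybx1-KO; the second library of each group was the lowest, and the spread within a group exceeded the difference between groups.

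**Figure D3:**
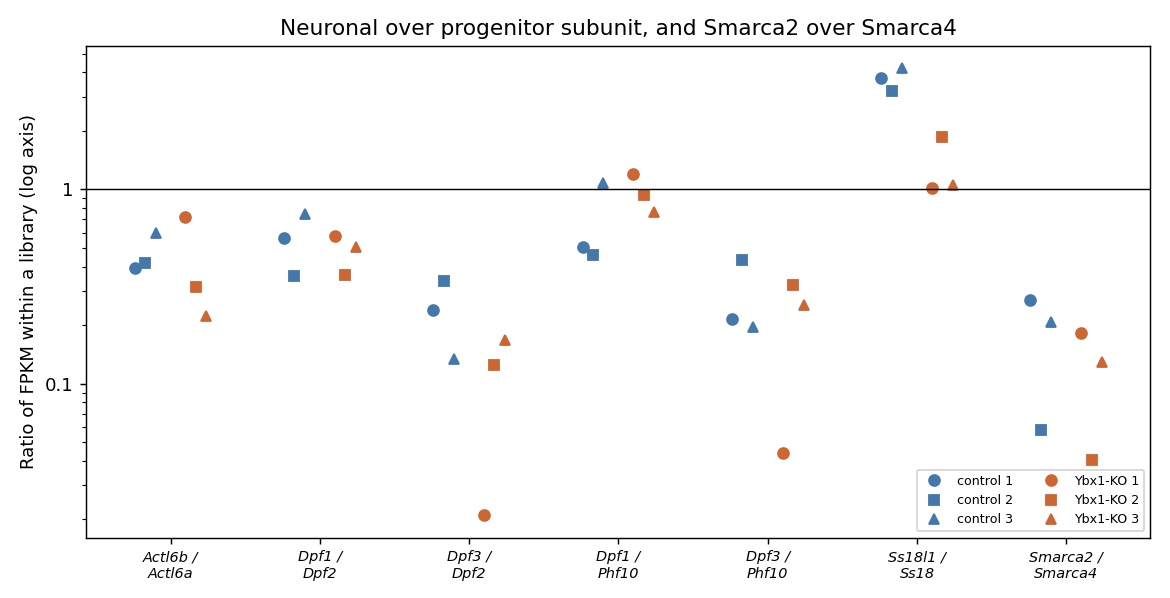
Ratio of FPKM of a neuronal to a progenitor subunit, and of Smarca2 to Smarca4, within each library, for controls (blue) and Ybx1-KO (orange). The y axis is on a log scale and the line marks equal FPKM. The Ss18l1 over Ss18 ratios, 3.23 to 4.20 in controls and 1.02 to 1.85 in Ybx1-KO, do not overlap, whereas those of every other pair do.

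Summed over the 8 switch subunits, the neuronal ones made up 44.7%, 45.1% and 49.8% of the FPKM in controls and 38.7%, 34.5% and 31.8% in Ybx1-KO, without overlap. The separation rested on the Ss18 pair. Without Ss18 and Ss18l1, the neuronal share was 27.8%, 28.6% and 35.4% in controls and 32.8%, 25.3% and 24.7% in Ybx1-KO, and the groups overlapped. In Ybx1-KO 3 the share was 30.1% after the receptor background had been subtracted. Smarca2 made up 5.44% to 21.2% of the ATPase FPKM in controls and 3.90% to 15.4% in Ybx1-KO.

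Cell type markers varied beside these levels, and in bulk libraries fewer cells of a type and less RNA per cell cannot be told apart. The 18 neuron markers summed to 4219, 7137 and 5351 CPM in controls and 5960, 5108 and 2381 CPM in Ybx1-KO. The sums overlapped, and Ybx1-KO 3, which had the lowest neuronal share, also had the lowest sum. Of the 18, none was called, and at an unadjusted p below 0.05 edgeR gave 1 higher (Nefm, log2 fold change 1.51) and 1 lower (Snap25, −1.28). The 12 progenitor markers summed to 1710, 1874 and 1910 CPM in controls and 2502, 2369 and 1474 CPM in Ybx1-KO, with 5 higher at that p (Nes, Hes1, Hes5, Notch1 and Msi1) against 6.96% of all genes, and 0 called. The 12 cycling markers overlapped too (819 to 1208 against 979 to 1385 CPM), with 2 higher at that p, Mcm2 and Mcm5. DESeq2 called 1 gene in each of these 3 lists, against 214 of all 21329 genes tested. These markers, chosen after their values were seen, are named only because they make up the counts.

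Markers of other cell types that a Sox2 sort can carry differed more. The 7 mesenchyme markers, led by Col3a1, Col1a1 and Col1a2, summed to 871, 133 and 217 CPM in controls and 112, 124 and 76.5 CPM in Ybx1-KO without overlap, with 5 lower at an unadjusted p below 0.05, against 4.26% of all genes. Neural crest and Schwann markers, led by Sox10, Foxd3 and Erbb3, summed to 30.3 to 49.9 CPM in controls and 54.4 to 162 CPM in Ybx1-KO, with 3 of 5 higher at that p, against 6.96% of all genes. Erythroid markers, led by Hbb-y, Hbb-bs and Hba-x, spanned 500 to 1164 CPM in controls and 188 to 1142 CPM in Ybx1-KO, with 3 of 7 lower, against the same 4.26%. In these 3 lists edgeR called none, and DESeq2 called 2, 1 and 1 genes, against 214 of all 21329 genes tested. Endothelial markers (22.2 to 46.0 against 10.5 to 57.8 CPM) and microglial markers (8.85 to 30.4 against 3.57 to 34.4 CPM) were low in both groups; Tie1 was at 0 in at least 1 library, as were Aif1 and Ptprc. The part of these cells in the levels of Smarca2 and Ss18l1 was not tested.

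**Figure D4:**
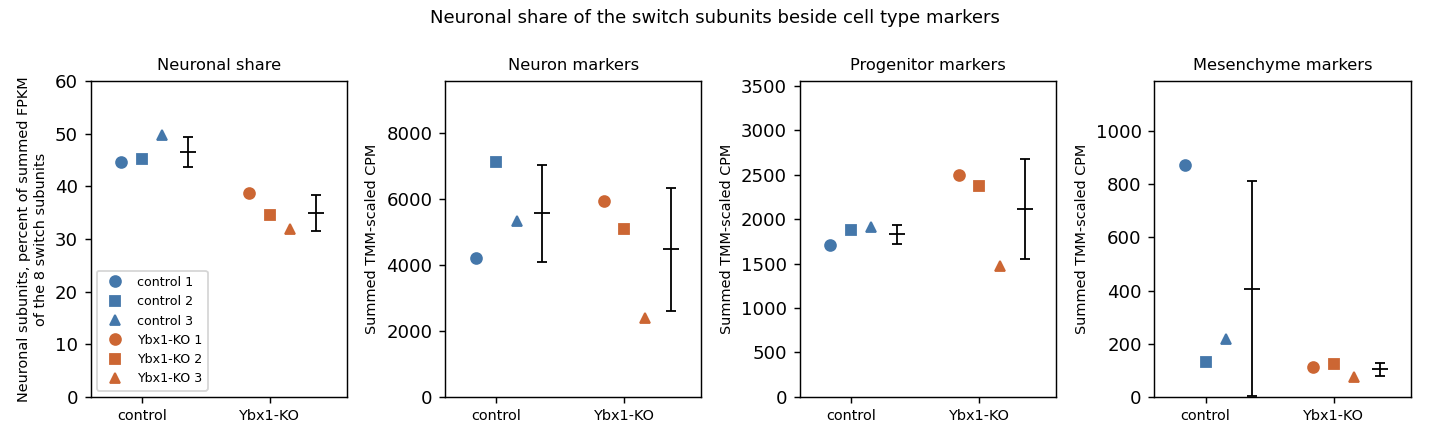
Neuronal share of the 8 switch subunits (left, percent of summed FPKM) beside summed TMM-scaled CPM of neuron, progenitor and mesenchyme markers (y axes from 0), by library, with mean ± SD as black bars. The share does not overlap between controls (44.7% to 49.8%) and Ybx1-KO (31.8% to 38.7%), the neuron and progenitor sums overlap, and the mesenchyme sum is highest in control 1 at 871 CPM.

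The other subunits of BAF complexes were described by a list of 21 genes, all of them tested. None was called by edgeR, limma-voom or DESeq2, and 3 were lower at an unadjusted p below 0.05 in edgeR, against 4.26% of all genes, with none higher. Of the 21 log2 fold changes, 14 were below 0, with a median of −0.19. Those with the highest levels were Actb at a mean of 932 FPKM, Smarcc2 at 43.8 FPKM and Smarcc1 at 31.0 FPKM, both Smarcc genes being the scaffold subunits of the complex, and none of them separated the groups.

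The 3 were Bcl11b, Bcl11a and Smarcd3. Bcl11b, a zinc-finger subunit that specifies subcerebral projection neurons, measured 222, 71.5 and 175.1 CPM in controls and 62.1, 56.1 and 18.5 CPM in Ybx1-KO. All Ybx1-KO libraries lay below all controls, with control 2 close to them, at a log2 fold change of −1.78 ± 0.516 (unadjusted p = 0.00324 and adjusted p = 0.356 in edgeR). On the FPKM scale, without TMM, Bcl11b overlapped between groups, at 8.01 FPKM in control 2 and 8.08 FPKM in Ybx1-KO 1. It was called when Ybx1-KO 1 was left out (adjusted p = 0.0127 in edgeR) and when Ybx1-KO 2 was left out (adjusted p = 0.0224 in edgeR), and not in the other 13 alternatives. Bcl11a, its paralog, measured 269, 215 and 214 CPM in controls and 91.1, 167 and 58.9 CPM in Ybx1-KO, and its log2 fold change was −1.14 ± 0.454 (adjusted p = 0.439 in edgeR) without overlap. Smarcd3, the variant that replaces its paralogs in muscle and heart complexes and is used by neuronal ones, stood at 50.9, 24.0 and 75.4 CPM in controls and at 23.9, 27.4 and 17.8 CPM in Ybx1-KO. Control 2 fell within the Ybx1-KO range, as it did for Smarca2, at a log2 fold change of −1.12 ± 0.433 (adjusted p = 0.435 in edgeR). Gltscr1l, a subunit of the non-canonical complex, was the third of the 21 without overlap, all 3 being lower, against 8.17% of all genes (30.9 to 44.8 against 13.6 to 30.6 CPM, log2 fold change −0.82 ± 0.398, adjusted p = 0.448 in edgeR). In FPKM, Gltscr1l overlapped as well (4.59 in control 1 and 4.62 in Ybx1-KO 3). Bcl11a stayed apart in FPKM (14.8 in control 2, its lowest control, and 9.32 in Ybx1-KO 2, its highest Ybx1-KO library). Without Ybx1-KO 3, the log2 fold changes of Bcl11b, Bcl11a, Smarcd3 and Gltscr1l were −1.39, −0.85, −0.96 and −0.80, and of these 4 only Bcl11b had an unadjusted p below 0.05 (0.0167, adjusted p = 0.316 in edgeR).

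**Figure D5:**
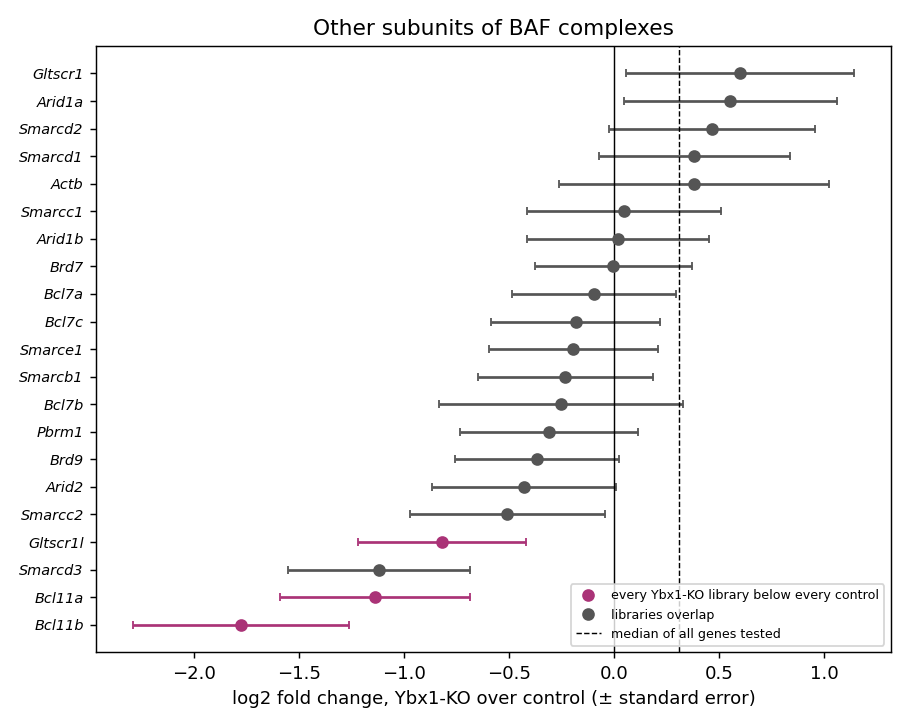
Log2 fold change, Ybx1-KO over control, with SE (x axis) of 21 other BAF subunits, sorted. Purple marks genes whose Ybx1-KO libraries all lie below all controls in TMM-scaled CPM, and the dashed line the median of all genes tested (0.31). Bcl11b (−1.78), Bcl11a (−1.14) and Gltscr1l (−0.82) are purple, and 14 of 21 lie below 0.

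In edgeR with TMM scaling and all 6 libraries, regulators of the exchange showed no gene past either threshold. Of 14 listed, 11 were tested, edgeR called 0 and gave 0 at an unadjusted p under 0.05; DESeq2 gave 1 at that p and limma-voom 0. Rest had a log2 fold change of −0.04 ± 0.427 at a mean of 3.54 FPKM. Rcor1, which docks chromatin-modifying enzymes on Rest, was without overlap at 33.1 to 40.2 CPM in controls and 22.0 to 30.5 CPM in Ybx1-KO (log2 fold change −0.51 ± 0.359, adjusted p = 0.512 in edgeR). In FPKM, without TMM, its groups overlapped, Ybx1-KO 3 (6.97) lying above control 2 (6.26) and control 3 (5.39). Ptbp1, the splicing repressor of progenitors and the highest of the list at 40.2 FPKM, had a log2 fold change of 0.43 ± 0.471.

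The host transcript of Mir9-2, C130071C03Rik, stood at 348, 228 and 288 CPM in controls and at 164, 191 and 137 CPM in Ybx1-KO. The groups did not overlap, at a log2 fold change of −0.81 ± 0.42 (unadjusted p = 0.0715 and adjusted p = 0.450 in edgeR). In FPKM, without TMM, they overlapped by a small margin, between control 2 (36.53) and Ybx1-KO 3 (36.55). In CPM, C130071C03Rik and Rcor1 were the 2 of 11 tested regulators without overlap, both lower, against 8.17% of all genes. Other hosts lay above 0, Mir9-3hg having a log2 fold change of 0.36 ± 0.413 and Mir124-2hg, at a mean of 33.5 FPKM, one of 0.11 ± 0.461. Mir124a-1hg, at a mean of 26.6 FPKM, had the highest of the hosts, 0.61 ± 0.463. Mir9-2, Mir124a-1 and Mir124a-3 were at 0 counts in every library, and Mir9-1 and Mir9-3 had at most 5. Such counts on microRNA genes come from total RNA libraries that do not hold mature microRNAs, so the level of miR-9-3p, whose match lies in the 3′ UTR of Actl6a, was not measured. Actl6a itself differed by −0.12 on the log2 scale, as given above.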

How the data were processed

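The authors mapped paired reads from stranded total RNA libraries, counted them with HTSeq 0.6.1p1 on GENCODE genes, and deposited the raw counts of each library as 1 table of gene symbols. Per the labels' processing notes the build was mm10 (GRCm38.p5); the aligner and strand setting are not given in the sources used here. Groups follow the genotype label; library numbers follow accession order and pair nothing.

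Counts were scaled by TMM and tested with edgeR 4.0.16 (quasi-likelihood, Benjamini-Hochberg over all genes tested; R 4.3.3). The filter kept genes whose mean FPKM exceeded 1 in at least 1 group; rows of the counter's own tallies were left out. Exon lengths and 3′ UTRs came from GENCODE M21, and 47624 symbols matched directly and 365 by an older symbol. SE is the log2 fold change over the root of F. The script was tested on simulated data, and its pass condition was set at a dispersion below that of these libraries. Their common coefficient of variation in edgeR was 0.80, so passing does not show how small a difference could be called here. Alternatives were limma-voom (limma 3.58.1), DESeq2 1.42.0, other scalings and filters, a receptor background subtracted, exon length offsets, and each library left out. A gene with 3 counts stood at 0.126 to 0.632 CPM, for counting error only.

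Of the 10 genes, the RefSeq promoters of 9 were searched, that of Ss18 being left out by a filter on its chromosome. The 3′ UTRs are those of 1 protein-coding transcript per gene. Named were the 10 genes, Ybx1, genes of the other lists with an unadjusted p below 0.05 or no overlap, the 3 highest of each list by FPKM and markers at 0. Rest, the microRNA hosts and microRNA genes at or near 0 counts were named as well. The genes and lists were chosen with earlier results of these data known. Two-sided exact permutation tests were used for single genes.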

Additional observations from a re-analysis of the deposited data

How the results depend on the processing

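None of the 10 BAF genes was called under any of the 15 alternatives. Smarca2 kept a negative log2 fold change in all of them (−1.67 to −0.999) and had an unadjusted p below 0.05 in 14, its lowest adjusted p being 0.0606 in edgeR without Ybx1-KO 1; the exception was the fit without control 3. Ss18l1 was negative in all (−1.21 to −0.66), with such a p in 10, and in 2 of the 6 fits that left out a library. Ss18, which was higher, and Dpf3 and Smarca4, which were lower, each had such a p in 1 of the 15. Signs turned for Actl6a (0.079 with total count scaling) and Dpf1 (−0.19 without Ybx1-KO 1, within a range of −0.19 to 0.49 over the fits that left out a library).

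Over all genes, DESeq2 called 214 (118 higher and 96 lower) and the fit with no filter 193 (113 and 80), against 0. With a library left out, edgeR called 0 to 725 genes, the calls coming without control 2 (73), Ybx1-KO 1 (696) or Ybx1-KO 2 (725). Of the other BAF subunits it called 0 to 1, Bcl11b. Ybx1 passed an adjusted p of 0.05 in 4 of the 15: DESeq2 (0.0236), no filter (0.0214), without Ybx1-KO 1 (8.6e-05) and without Ybx1-KO 2 (0.0131). Among the ratios, that of Smarca2 to Smarca4 differed by −1.26 to 0.057 when each library was left out, and that of Actl6b to Actl6a by −0.80 to 0.049. The causes were not tested. No paired analysis was possible because the groups share no replicate number in the labels. Depth limits Dpf3 most, with 14 counts in Ybx1-KO 1.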
